A study of Solanum lycopersicum with 4 samples.

Results

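A set of 10 genes for the carbon-fixing reactions of the chloroplast was followed in tomato leaves during the first 48 h at 10 °C. Its members were chosen by identifier from a list, 3 genes for the Rubisco small subunit, 2 for Rubisco activase, and 1 each for GAPDH B, plastid phosphoglycerate kinase, sedoheptulose bisphosphatase (SBPase), phosphoribulokinase and transketolase. All 10 were among the 26219 genes listed in any library, and all 10 passed the filter on low counts that left 13840 genes for comparison. The roles came with the list. Neither the files nor the RefSeq table of assembly SLM_r2.1, with its 41476 genes, pairs these identifiers with names, so the roles were not checked by sequence.

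In the Calvin cycle, Rubisco joins CO2 to ribulose bisphosphate, and the product is reduced to sugar phosphates by phosphoglycerate kinase and the chloroplast GAPDH, which is built from A and B subunits. SBPase, transketolase and phosphoribulokinase then regenerate ribulose bisphosphate. Rubisco is made of a large subunit encoded in the chloroplast and a small subunit encoded by a nuclear gene family, and activase is the ATP-driven protein that clears inhibitory sugar phosphates from its active sites. In leaves the small subunit and activase transcripts are typically very abundant, and they mark green tissue.

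The material was the first pair of true leaves of cultivar Moneymaker, from plants 3 weeks old, with 1 RNA-seq library at each of 0, 3, 24 and 48 h. Per the labels' protocols, growth was at 25 °C with a light intensity of 100 µmol m-2 s-1, treatment at 10 °C with 40 µmol m-2 s-1, and days had 12 h of light throughout. Light and temperature therefore changed together, and in differences from leaves harvested before the shift they cannot be told apart. The titles name 10 °C for all 4 libraries, 0 h included, and the labels do not say whether plants were pooled or at which hour leaves were cut. Differences in time of day, at 3 h above all, therefore cannot be told apart from those in time at 10 °C.

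Libraries held between 35.7 and 38.5 M unique reads (M, 1000000 reads). Levels are given as CPM, counts per 1000000 reads after TMM scaling of the libraries. Ranks and levels of different genes are compared per length, as RPKM divided by the same scaling factor. Shares of reads, and the choice of genes by mean CPM, are not corrected for length. Ratios between times are log2 ratios of CPM with a small pseudocount, and genes were called different from 2-fold upward. With 1 library per time there is no estimate of the spread between plants, no p-value and no replicate check, so every value describes these libraries. Folds carry exact 95% intervals that cover counting error alone. PCR copies of a molecule cannot be recognised in these reads, so the intervals may be too narrow even for counting error. In whole leaves, fewer cells of a type and less RNA per cell cannot be told apart.

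The genes did not move as a block. After 3 h all 10 were within 1.15-fold of their 0 h level. By 24 and 48 h the 2 activase genes and GAPDH B were much lower, whereas the small subunit, phosphoglycerate kinase and the 3 regeneration genes were lower by smaller amounts. At 48 h the first 3 genes were 2.52- to 3.06-fold below 0 h, and the other 7 were between 1.12- and 1.67-fold below. These smaller differences depended on how the libraries were scaled, as described at the end.

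**Figure D1:**
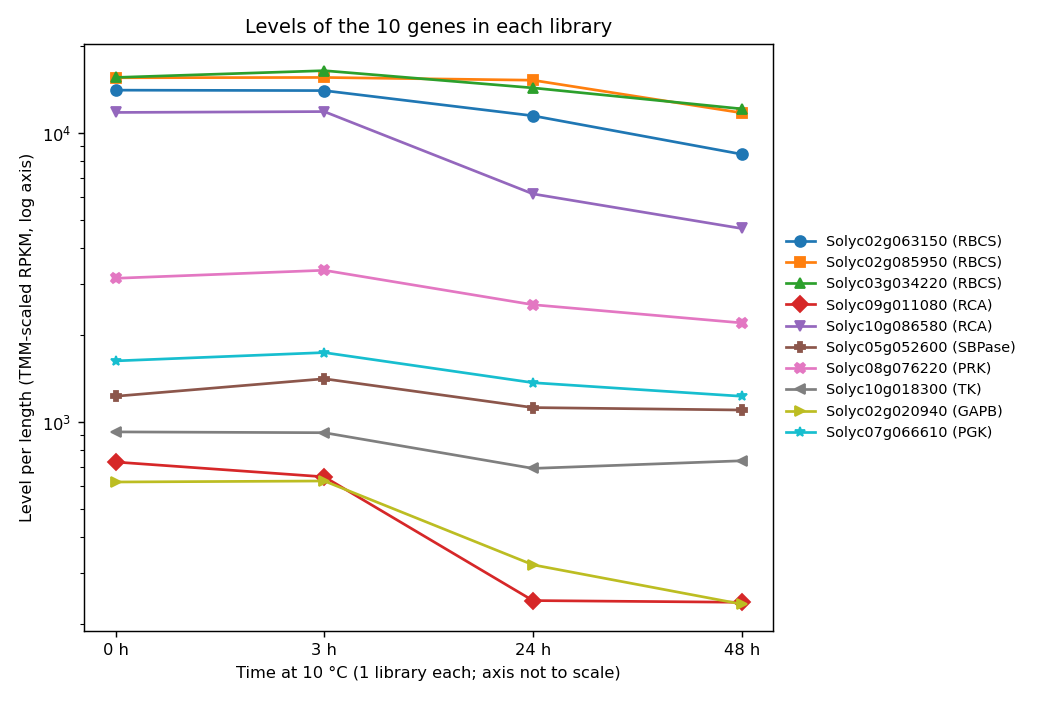
Level per length (TMM-scaled RPKM, log axis) of each gene in the libraries at 0, 3, 24 and 48 h; each point is 1 library. RBCS is the Rubisco small subunit, RCA activase, TK transketolase, GAPB GAPDH B, PGK phosphoglycerate kinase and PRK phosphoribulokinase. The small subunit genes stay at the top in every library, while Solyc09g011080 and Solyc02g020940 end lowest, at 238 and 234 at 48 h.

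Per length, the 3 small subunit genes held the first 3 ranks among all listed genes in every one of the 4 libraries. Activase gene Solyc10g086580 ranked 4 at 0 and 3 h, 6 at 24 h and 8 at 48 h. The other activase gene, Solyc09g011080, ranked 138, 163, 498 and 523 at 0, 3, 24 and 48 h, and GAPDH B (Solyc02g020940) ranked 161, 171, 348 and 531. In the opposite direction, phosphoribulokinase (Solyc08g076220) ranked 25 at 48 h against 43 at 0 h, and phosphoglycerate kinase (Solyc07g066610) ranked 56 at 48 h against 77 at 0 h. SBPase (Solyc05g052600) ranked 69 at 48 h against 89 at 0 h, and transketolase (Solyc10g018300) 110 at 48 h against 114 at 0 h. With TMM scaling the levels of the genes that gained rank were all lower at 48 h than at 0 h. Ranks within a library do not depend on scaling between libraries. The largest losses of rank were in Solyc09g011080 and GAPDH B, which were already the lowest of the 10 per length at 0 h. Loss of rank did not measure the size of the fall. At 48 h GAPDH B was 2.65-fold below 0 h and Solyc10g086580 2.52-fold below, with very unlike changes of rank.

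Together the 10 genes took 6.37%, 6.23%, 5.69% and 4.83% of all unique reads at 0, 3, 24 and 48 h. The small subunit genes were below their 0 h share by a larger amount only in the last library. They took 3.52%, 3.43%, 3.62% and 2.99% of all reads at these times. The activase genes took 1.59%, 1.52%, 0.918% and 0.741% at the same times, and the 5 remaining cycle genes took 1.26%, 1.28%, 1.15% and 1.10%. Between 0 and 24 h the smaller total was therefore mostly activase.

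Among the small subunit genes, which encode the nuclear part of Rubisco, Solyc02g063150 on chromosome 2 had 12129, 12086, 9887 and 7280 CPM at 0, 3, 24 and 48 h, from 438311, 391551, 375739 and 303743 reads. It was the most reduced of the 3 genes, 1.23-fold below 0 h at 24 h (interval 1.22 to 1.23) and 1.67-fold below at 48 h (1.66 to 1.67). The second gene on chromosome 2, Solyc02g085950, had 13249, 13278, 12992 and 10016 CPM at 0, 3, 24 and 48 h. Its level at 24 h was within 1.02-fold of 0 h, and only the 48 h library was clearly lower, 1.32-fold (1.32 to 1.33). Solyc03g034220 on chromosome 3 had 12158, 12836, 11189 and 9467 CPM at the same times. It was 1.06-fold above 0 h at 3 h (1.05 to 1.06) and 1.28-fold below it at 48 h (1.28 to 1.29).

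Because these genes did not change alike, the make-up of the small subunit reads shifted within the libraries, whatever the scaling. The share of Solyc02g063150 in the reads of the 3 genes was 32.3%, 31.6%, 29.0% and 27.2% at 0, 3, 24 and 48 h. That of Solyc02g085950 was 35.3%, 34.8%, 38.1% and 37.4% at the same times, and that of Solyc03g034220 was 32.4%, 33.6%, 32.8% and 35.4%. So Solyc02g063150 had the smallest share in all 4 libraries, by a narrow margin at 0 h, and the shares of the other genes were larger at 48 h than at 0 h.

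The values of Solyc02g085950 carry a limit. Reads covered only 51.8% to 52.3% of its length in the 4 libraries, despite at least 417906 reads in each. Of the 331 genes with at least 10000 reads in every library, just 6 were covered under 60% in all 4, and this was the only one of the 10 carbon-fixing genes among them. The other 9 were covered between 92.3% and 99.96%. Set per covered length instead of per annotated length, the gene would stand at 22455 at 48 h and 29974 at 0 h on the scaled RPKM scale, rather than at 11742 (48 h) and 15532 (0 h). The RefSeq table of SLM_r2.1 lists 4 entries named rbcS, 3 on chromosome 2 and 1 on chromosome 3, and 2 of those on chromosome 2 are separated by only 1 gene. The identifiers are not paired with those entries, and the part of near-identical copies in the partial coverage was not tested. If reads matching several copies were left out as not unique, the levels of these genes are understated.

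Activase gene Solyc09g011080 had the lowest ratio to 0 h of the 10 genes at each later time, while the other activase gene was close to GAPDH B, described next. Solyc10g086580 on chromosome 10, the more abundant of the activase genes, had 15762, 15871, 8235 and 6252 CPM at 0, 3, 24 and 48 h, from 569618, 514159, 312951 and 260854 reads. The 0 and 3 h libraries were nearly equal, and both later libraries were far below them. The gene was 1.91-fold below 0 h at 24 h (1.91 to 1.92) and 2.52-fold below at 48 h (2.51 to 2.53). Solyc09g011080 on chromosome 9 had 1176, 1045, 390 and 385 CPM at 0, 3, 24 and 48 h, from 42497, 33860, 14815 and 16047 reads. It was the only one of the 10 genes with a counting interval wholly below its 0 h level at 3 h with TMM scaling, 1.13-fold lower (1.11 to 1.14). At 24 h it was 3.02-fold below 0 h (2.96 to 3.07), and at 48 h 3.06-fold below (3.00 to 3.11).

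The activase genes also differed in their course after 24 h. Solyc10g086580 was a further 1.32-fold lower at 48 h than at 24 h (1.31 to 1.32). Solyc09g011080 was 1.01-fold lower between these libraries, within counting error (0.99 to 1.04). Solyc10g086580 supplied 93.1%, 93.8%, 95.5% and 94.2% of the reads of both genes at 0, 3, 24 and 48 h. One gene thus carried nearly all activase reads at every time, and its share was highest at 24 h.

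The genes of the reduction step, which turns phosphoglycerate into triose phosphate, were both lower at 24 and 48 h, but by unlike amounts. GAPDH B, which forms the chloroplast enzyme together with the A subunit and gives it much of its light regulation, had 955, 962, 493 and 361 CPM at 0, 3, 24 and 48 h (Solyc02g020940, chromosome 2), from 34501, 31178, 18750 and 15051 reads. It was 1.93-fold below 0 h at 24 h (1.90 to 1.97) and 2.65-fold below at 48 h (2.60 to 2.70). Phosphoglycerate kinase (Solyc07g066610, chromosome 7), which acts just before GAPDH, had 3158, 3375, 2655 and 2383 CPM at 0, 3, 24 and 48 h. Its 48 h level was 1.33-fold below 0 h (1.31 to 1.34), and its 3 h level 1.07-fold above (1.06 to 1.08). In the reads of both genes together, GAPDH B made up 23.2%, 22.2%, 15.7% and 13.1% at 0, 3, 24 and 48 h.

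The 3 regeneration genes were within 1.43-fold of their 0 h level at every time. SBPase, often described as a control point of the cycle, had 1989, 2286, 1817 and 1782 CPM at 0, 3, 24 and 48 h (Solyc05g052600, chromosome 5). Its level at 3 h, 1.15-fold above 0 h (1.14 to 1.16), was the highest ratio to 0 h of any of the 10 genes at any time with TMM scaling, and at 48 h it was 1.12-fold below (1.10 to 1.13). Phosphoribulokinase, which makes the acceptor of CO2, had 5305, 5656, 4298 and 3719 CPM at 0, 3, 24 and 48 h (Solyc08g076220, chromosome 8), 1.43-fold below 0 h at 48 h (1.42 to 1.44). Transketolase, which moves carbon units between sugar phosphates, had 2056, 2043, 1537 and 1633 CPM at 0, 3, 24 and 48 h (Solyc10g018300, chromosome 10). It was 1.34-fold below 0 h at 24 h (1.32 to 1.35) and 1.26-fold below at 48 h (1.25 to 1.27), and was 1.06-fold higher at 48 h than at 24 h (1.05 to 1.07). With TMM scaling it was the only one of the 10 above its 24 h level at 48 h, whereas with plain library totals SBPase and Solyc09g011080 were too, at log2 ratios of 0.04 and 0.05.

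**Figure D2:**
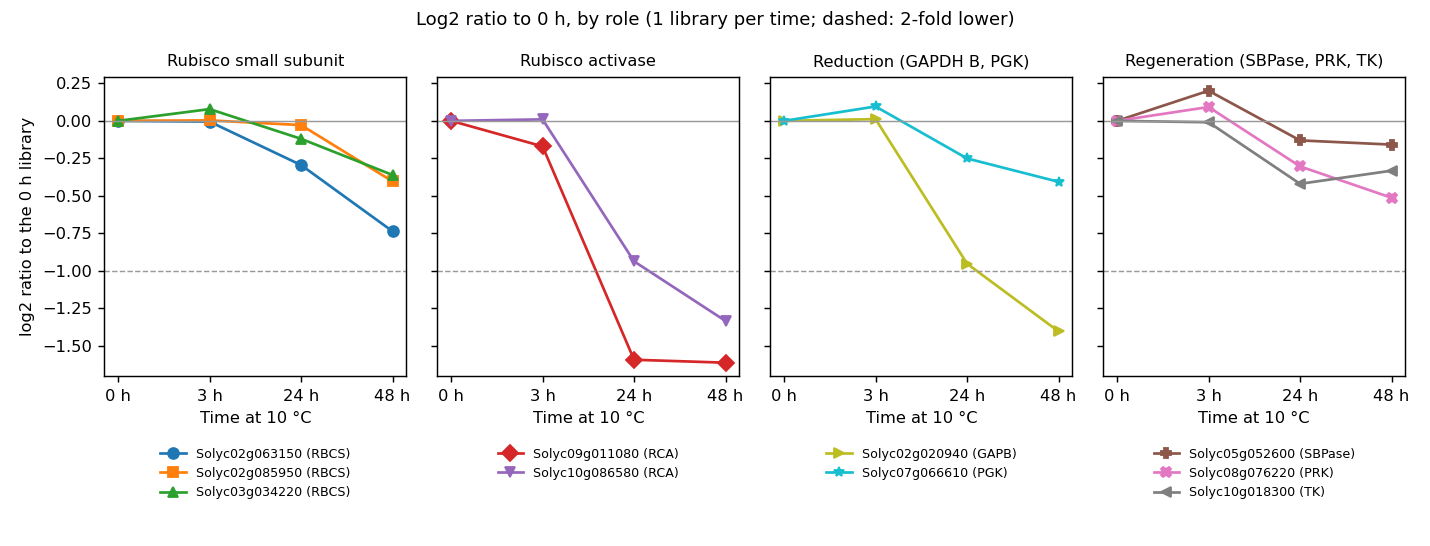
Log2 ratio to the 0 h library (TMM-scaled) at 3, 24 and 48 h, in panels by role; each point compares 1 library with the 0 h library, and the dashed line marks 2-fold lower. Solyc09g011080 is below that line at 24 h, and it, Solyc10g086580 and Solyc02g020940 are below it at 48 h, at -1.61, -1.33 and -1.40.

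At 3 h against 0 h, none of the 10 genes was 2-fold different in either direction. Of all genes compared, 1.13% were at least 2-fold lower and 4.76% at least 2-fold higher. The log2 ratios ran from -0.17 (Solyc09g011080) to 0.20 (SBPase) with a median of 0.01, beside a median of 0.00 over all genes compared. Of the 10 genes, 3 lay below their 0 h level by any amount, against 49.6% of all genes compared. That count rested on the scaling, with 2 genes below by DESeq2 size factors and 6 by upper quartile factors or plain totals.

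At 24 h against 0 h, 1 of the 10 genes was at least 2-fold lower, Solyc09g011080, against 8.28% of all genes compared, and none was 2-fold higher, against 9.65%. Both counts are close to that background. Solyc02g020940 and Solyc10g086580, with log2 ratios of -0.95 and -0.94, lay just short of the threshold, and the next gene was transketolase at -0.42. All 10 lay below 0 h by some amount, against 48.6% of all genes, and their median log2 ratio was -0.30 beside 0.02 over all genes compared. Among the 100 genes with the highest mean CPM, 92 are outside the list, and Solyc09g011080 and Solyc02g020940 are not among the 100. Of these 92, 82 were below 0 h at 24 h and 37 at least 2-fold lower.

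At 48 h against 0 h, 3 of the 10 genes were at least 2-fold lower, against 8.48% of all genes compared. They were Solyc09g011080, Solyc02g020940 and Solyc10g086580, with log2 ratios of -1.61, -1.40 and -1.33. The next was the small subunit gene Solyc02g063150 at -0.74, and SBPase at -0.16 was the nearest to no difference. All 10 were again below 0 h by some amount, against 49.6% of all genes, and the median was -0.46 beside 0.00 over all genes compared. Of the 92 genes outside the list among the 100 with the highest mean CPM, 83 were below 0 h at 48 h. At least 2-fold lower were 45 of these 92, so being lower at 48 h was common at this abundance, a mean of at least 1121 CPM. Of the 3 genes named above, only Solyc10g086580 is that abundant, whereas Solyc09g011080 and Solyc02g020940 have lower means. Of the 13840 genes compared, 367 had a smaller ratio than Solyc09g011080, 522 a smaller one than Solyc02g020940 and 595 a smaller one than Solyc10g086580. The comparisons at 3, 24 and 48 h share the single 0 h library, so their values are not independent of each other.

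**Figure D3:**
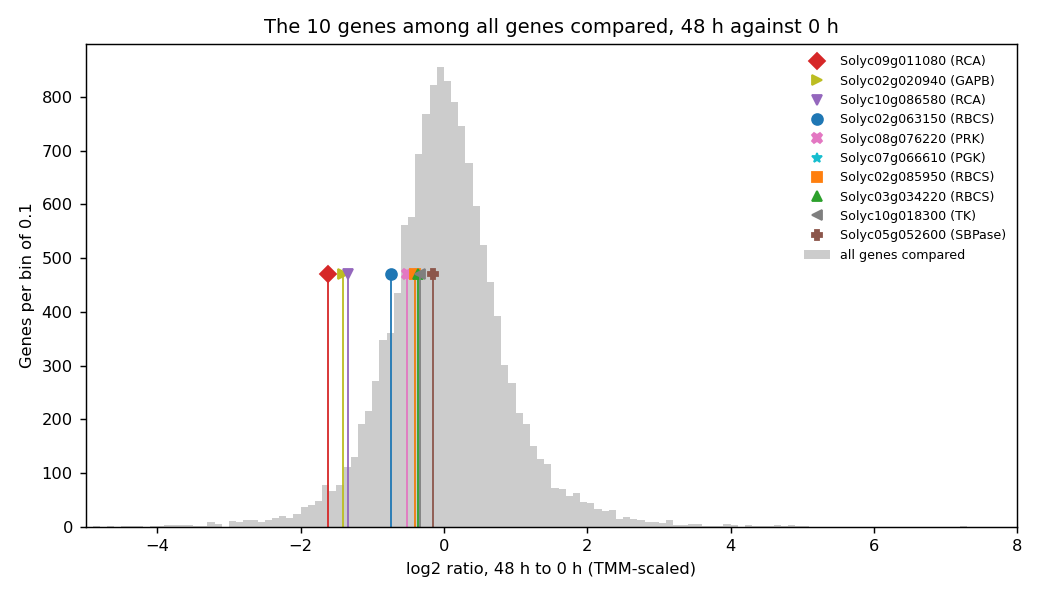
Number of genes per bin of 0.1 in log2 ratio of 48 h to 0 h (TMM-scaled) over the 13840 genes compared, with coloured lines at the ratios of the 10 carbon-fixing genes. Both activase genes and GAPDH B stand in the lower tail, at -1.33 or less, and the other 7 lie between -0.74 and -0.16, within the body of the distribution.

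The remaining comparisons leave the 0 h library out. At 24 h against 3 h, Solyc09g011080 was again the only one of the 10 genes at least 2-fold lower, with a log2 ratio of -1.42, against 9.45% of all genes compared. GAPDH B followed at -0.96 and Solyc10g086580 at -0.95, and the median of the 10 was -0.37 beside 0.00 over all genes. At 48 h against 24 h none was 2-fold lower, against 1.47% of all genes. The lowest log2 ratios there were -0.45 for GAPDH B, -0.44 for Solyc02g063150 and -0.40 for Solyc10g086580, and the median was -0.23.

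In likeness of course, measured as the largest difference between profiles of log2 ratio to 0 h at 3, 24 and 48 h, the closest pair of the 10 was Solyc10g086580 and GAPDH B. Their profiles never differed by more than 0.07. Next came the small subunit genes Solyc02g085950 and Solyc03g034220 with 0.09, and then phosphoribulokinase and phosphoglycerate kinase with 0.11. The most unlike pair, Solyc02g085950 and Solyc09g011080, differed by 1.56. Profiles within 0.25 of Solyc10g086580 at all 3 times were found in 143 other genes, or 1.03% of those compared, and within 0.25 of the median profile of the 10 in 1200 genes, or 8.67%. Identifiers outside the list are not paired with names in the sources used here, so no other gene of the cycle is described.

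Ratios taken within a library need no scaling and showed the same split. The activase genes made up 31.1%, 30.7%, 20.2% and 19.9% of the reads of the activase and small subunit genes at 0, 3, 24 and 48 h. Exact 95% binomial intervals reached from 20.1% to 20.3% at 24 h and from 31.0% to 31.2% at 0 h. For each small subunit read there were 0.451, 0.443, 0.253 and 0.248 activase reads at 0, 3, 24 and 48 h. Nearly all of this difference lay between the 3 and 24 h libraries. Among the regeneration genes the shares moved less. SBPase supplied 21.3%, 22.9%, 23.7% and 25.0% of their reads at 0, 3, 24 and 48 h, and phosphoribulokinase 56.7%, 56.6%, 56.2% and 52.1%.

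**Figure D4:**
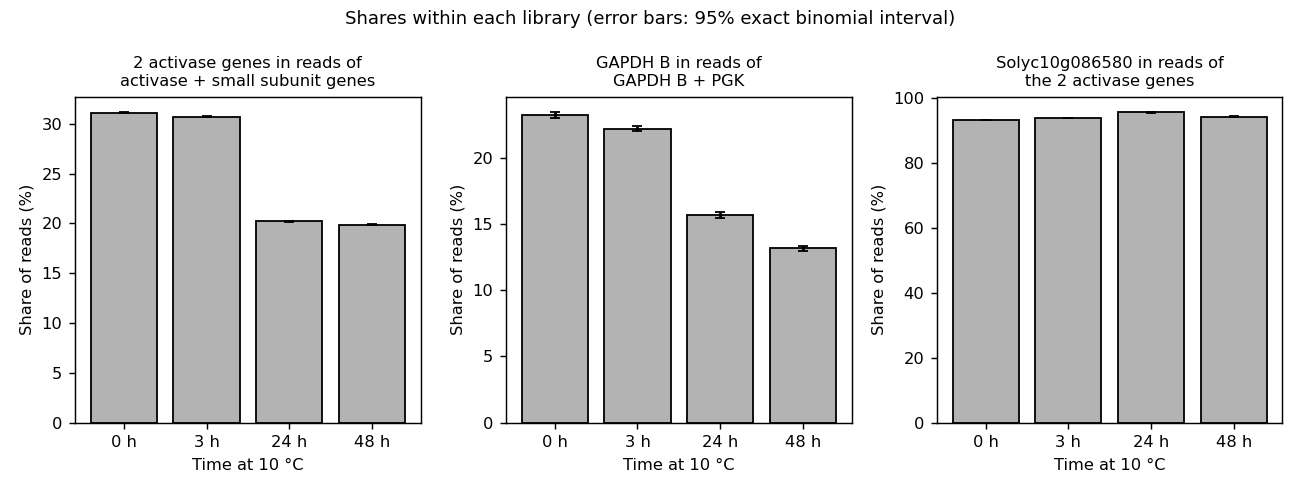
Share of reads within each library (percent, bars start at 0; error bars are exact 95% binomial intervals) for the activase genes among activase and small subunit reads, for GAPDH B among GAPDH B and phosphoglycerate kinase reads, and for Solyc10g086580 among activase reads. The first share is 19.9% at 48 h against 31.1% at 0 h and the second 13.1% at 48 h against 23.2% at 0 h, while the third stays between 93.1% and 95.5%.

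The size of the smaller differences, and for some genes their direction, rested on the scaling. The authors' RPKM scales by the plain total of each library, and on that scale the median log2 ratio of all genes compared was 0.20 at 24 h and 0.25 at 48 h against 0 h, and 3 of the 10 genes then lay above 0 h at 24 h. These were Solyc02g085950 at 0.15, Solyc03g034220 at 0.06 and SBPase at 0.05. At 48 h SBPase alone was above, at 0.09. The activase genes and GAPDH B stayed at least 2-fold lower at 48 h with every scaling used. Plain totals gave -1.36 for Solyc09g011080, -1.15 for Solyc02g020940 and -1.08 for Solyc10g086580, and 4.99% of all genes were then at least 2-fold lower. Other abundant transcripts were also lower in the later libraries. Of the 100 genes with the highest mean CPM, 8 are on the list, and the other 92 stood at a median log2 ratio to 0 h of -0.70 at 24 h and -0.995 at 48 h, with 45 of them at least 2-fold lower at 48 h. The median of the 10 carbon-fixing genes at 48 h, -0.46, was nearer to 0 than that of these 92. The sets are not matched in abundance, since the 10 include Solyc09g011080 and Solyc02g020940, which are less abundant than these 92.

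**Figure D5:**
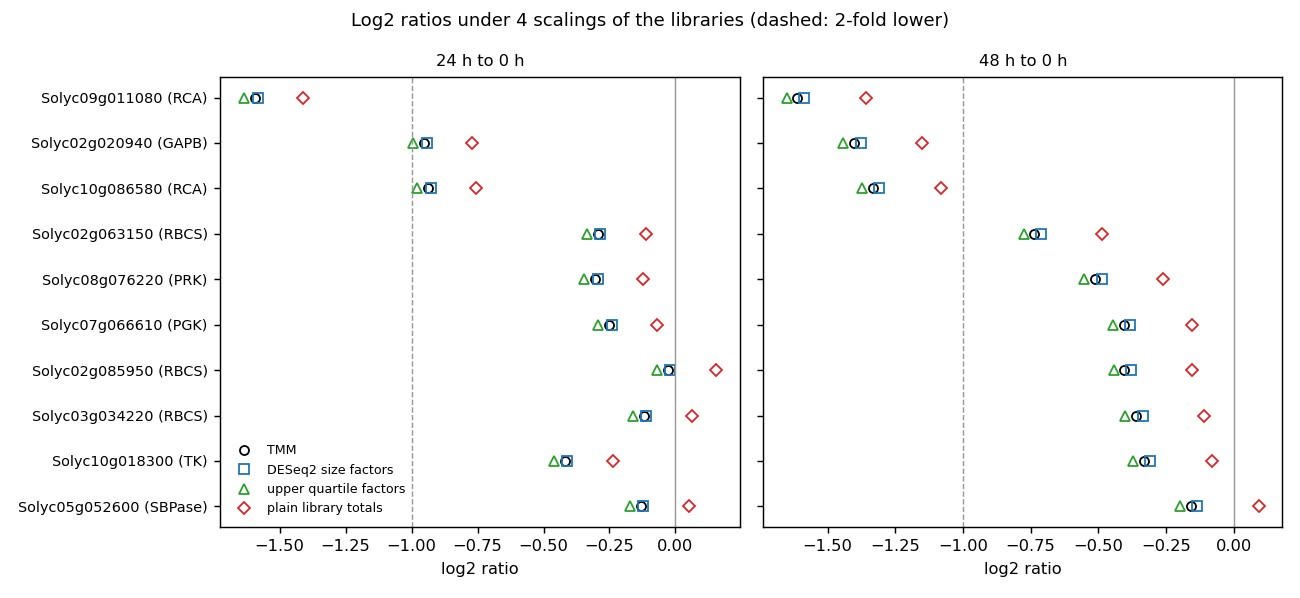
Log2 ratio to 0 h of each gene at 24 h (left) and 48 h (right) with the libraries scaled by TMM, DESeq2 size factors, upper quartile factors or plain totals; the solid line marks no difference and the dashed line 2-fold lower. Plain totals move every point to the right, and SBPase is then at 0.05 at 24 h and 0.09 at 48 h.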

How the data were processed

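Transcripts were measured by RNA-seq in 4 libraries, grouped by the time in their titles. Per the file headers, each deposited file gives for every gene a count of unique reads, the length, the percent of the length covered, and an RPKM value. The deposited counts were whole numbers whose sum equalled the total in the header. The authors' RPKM followed from count, length and that total. Genes without a read are not listed in the deposited files. The sources used here do not state the aligner, annotation release or strand setting, so reads of overlapping genes cannot be told apart.

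From the counts, TMM factors (edgeR 4.0.16, R 4.3.3) were 0.94, 0.90, 1.06 and 1.12 at 0, 3, 24 and 48 h. Log2 ratios used CPM plus a pseudocount of 5 reads (0.135 CPM). Folds were taken without it, with exact Clopper-Pearson intervals (scipy 1.17.1). Genes were compared if listed in all 4 files with a mean of at least 5 CPM. The package edgeR served for scaling only, and the computation was tested on simulated data. All 10 genes are described, by rule. The genes and lists were chosen with earlier results of these data known. Alternatives were DESeq2 1.42.0 size factors, upper quartile factors, plain totals, TMM without the 10 genes, pseudocounts of 0.5 and 25 reads, other filters and other fold thresholds. Chromosomes were read from the identifiers. Lists of further pathway genes and organ markers were not used, as the sources here do not annotate their identifiers.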

Additional observations from a re-analysis of the deposited data

Results flagged for a closer look

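Of the 10 genes, 5 had log2 ratios to 0 h of opposite sign at 3 h and at both later times, with counting intervals that excluded no difference on each side. With TMM scaling they were higher at 3 h and lower afterwards, and the difference between times was not tested, since each time has 1 library. SBPase (Solyc05g052600) had 0.20 at 3 h, -0.13 at 24 h and -0.16 at 48 h. Phosphoglycerate kinase (Solyc07g066610) had 0.10, -0.25 and -0.41 at these times, and phosphoribulokinase (Solyc08g076220) had 0.09, -0.30 and -0.51. The small subunit gene Solyc03g034220 had 0.08, -0.12 and -0.36. Activase gene Solyc10g086580 had 0.01, -0.94 and -1.33, and its value at 3 h was -0.05 with plain library totals. With plain totals SBPase and Solyc03g034220 were also above 0 h at 24 h, at 0.05 and 0.06, and SBPase at 48 h, at 0.09.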

How the results depend on the processing

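No paired analysis was possible because there is a single library at each time, which also leaves no replicate to omit. None of the 10 genes past 2-fold changed direction under any scaling or pseudocount used. These settings and the filters left every count of 2-fold different genes among the 10 as it was. The share of all genes at least 2-fold lower did move. Against 0 h it ran from 5.97% (plain totals) to 10.0% (no filter on low counts) at 24 h. At 48 h it ran from 4.99% to 9.98% with the same settings. A 1.5-fold threshold gave 3 lower genes at 24 h against 0 h, 3 at 24 h against 3 h and 4 at 48 h against 0 h, beside 18.5%, 18.8% and 19.3% of all genes. A 4-fold threshold gave 0 lower genes in these comparisons, beside 1.39%, 2.49% and 1.29% of all genes. The limits themselves set these changes. The 10 genes had a median log2 ratio of -0.053 (3 h to 0 h), -0.12 (24 h to 0 h), -0.21 (48 h to 0 h), -0.13 (24 h to 3 h) and -0.15 (48 h to 24 h) with plain totals. It was -0.29 (24 h to 0 h), -0.43 (48 h to 0 h) and -0.21 (48 h to 24 h) with DESeq2 size factors, and -0.041 (3 h to 0 h), -0.34 (24 h to 0 h) and -0.50 (48 h to 0 h) with upper quartile factors. These shifts follow from the scaling, which moves every gene alike. The summed counts of the 10 gave 0.032 (3 h to 0 h), -0.34 (24 h to 0 h), -0.65 (48 h to 0 h) and -0.31 (48 h to 24 h), weighted to the most abundant genes.

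Weighted by length, as RPKM, the shares at 0, 3, 24 and 48 h were 7.002%, 6.91%, 6.78% and 5.61% for the 10 genes in all RPKM and 4.85%, 4.77%, 5.20% and 4.25% for the small subunit genes. Solyc10g086580 had 94.2%, 94.8%, 96.2% and 95.2% of activase RPKM. The activase genes had 21.7%, 21.4%, 13.5% and 13.2% of the RPKM of the activase and small subunit genes. GAPDH B had 27.6%, 26.4%, 19.0% and 16.0% of the RPKM of GAPDH B and phosphoglycerate kinase. In small subunit RPKM, Solyc02g063150 had 31.1%, 30.5%, 28.0% and 26.1%, Solyc02g085950 had 34.4%, 33.8%, 37.1% and 36.3%, and Solyc03g034220 had 34.5%, 35.7%, 34.9% and 37.5%. Depth was no limit for these genes, whose lowest count was 14815 reads. Of 50 log2 ratios of single genes, 11 changed sign with plain totals, 3 with upper quartile factors and 1 with DESeq2 size factors, none of them beyond 0.20 in size with TMM.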

Other observations

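The identifier listed just before the main activase gene, Solyc10g086570.2.1, had 5037, 4069, 2319 and 1293 reads at 0, 3, 24 and 48 h. Its log2 ratio to 0 h was -1.19 at 24 h and -2.16 in the last library. It was singled out after its values were seen, and the sources used here do not name it. Its reads at 0 h came to 0.884% of those of Solyc10g086580, and whether they are its own was not tested. Of the 20 identifiers listed next to the 10 genes, 11 passed the filter, and 3 of these 11 were at least 2-fold lower at 48 h than at 0 h, against 8.48% of all genes compared.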
